A study of Mus musculus with 59 samples.

Results

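The 10 genes described here, called the members, belong to meiotic chromosomes and were followed in mouse embryonic stem cells (ESCs) and in embryoid bodies (EBs): Sycp1, Sycp2, Sycp3 and Syce1 of the synaptonemal complex, Stag3, Smc1b and Rec8 of meiotic cohesin, Hormad1 and Hormad2 of the chromosome axis, and Stra8 of meiotic entry. They were chosen by name, with earlier results of these data known, and are 10 of the 24391 genes in the deposited tables. All 10 were measured in each of the 59 libraries, and all had a TPM (a level per length of transcript, scaled to the same total in each library) above 0 in at least 1 library of every line.

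The study asked what the Polycomb repressive complex PRC1, and above all its PCGF1 form, does as ESCs leave self-renewal. Each of 6 ESC lines carried a Cre that 4-hydroxytamoxifen (4-OHT) switches on, and in each line cells without 4-OHT were the control and cells with it the mutant. The genotypes were Pcgf1 f/f against Pcgf1 Δ/Δ (19 libraries: 4 control ESC, 5 mutant ESC, 5 control EB and 5 mutant EB), and, with 8 libraries and 2 in each group, Pcgf2/4 (the Pcgf24 line), Pcgf3/5 (Pcgf35), Pcgf6 and Ring1a/b floxed cells against the deleted cells, and the Ring1 catalytic line. In the Ring1a/b line the controls already lacked Ring1a, and 4-OHT removed Ring1b. In the Ring1 catalytic line both groups carried point mutations in both copies of Ring1a, and the mutant cells had the point mutation in Ring1b as well, so that both proteins lacked catalytic activity. ESCs grew on mouse embryonic fibroblast feeders with LIF and 3 inhibitors, and EBs were kept for 2 days without these in low attachment dishes. Each line stands for its own mutation, and nothing in the sources used here says that libraries of a group came from separate clones, so that p-values measure the spread between these libraries.

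The labelled group and the condition in the deposited name of the library were the same in 38 of the 59 libraries and differed in 21: 6 of the Pcgf6 line, 6 of the Pcgf24 line, 5 of the Pcgf35 line and 4 of the Ring1a/b line. The groups used here are those of the labels, and in these 4 lines a group is called by its label ("the libraries labelled control EB"). Defining markers went against the label for stage in the Ring1a/b line: Klf4, a naive ESC gene, stood at 665 to 709 TPM in the libraries labelled control EB (named mutant ESC) and at 7.38 to 9.90 TPM in those labelled mutant ESC (named control EB). Fgf5, a formative gene of EBs, showed that labelled groups of the other 3 lines mix stages: it ran from 0 to 25.7 TPM within the libraries labelled control ESC of the Pcgf6 line, from 0.0713 to 33.9 TPM within those of the Pcgf24 line, and from 0 to 16.1 TPM within those labelled mutant EB of the Pcgf35 line. In the Pcgf1 line Klf4 was at 655 TPM or more in every ESC library and at 74.6 TPM or less in every EB library, and Fgf5 was at 0.438 TPM or less in ESCs and at 8.46 TPM or more in EBs. The Pcgf1 and Ring1 catalytic lines, where labels and names were the same throughout, therefore come first.

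In meiosis, homologous chromosomes are held along their length by the synaptonemal complex, in which SYCP1 forms the transverse filaments, SYCE1 belongs to the central element, and SYCP2 and SYCP3 build the lateral elements. These rest on a cohesin with meiosis-specific subunits, STAG3, SMC1B and REC8, and the HORMA-domain proteins HORMAD1 and HORMAD2 bind the axis where chromosomes have not yet synapsed. STRA8 is induced by retinoic acid and switches on the meiotic programme. ESCs do not undergo meiosis, and many germline genes are kept low in them by PRC1.6, the form of PRC1 that holds PCGF6 together with E2F6, L3MBTL2 and the MGA and MAX proteins.

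MGA and MAX are known to bind the E-box CACGTG, and E2F6 sites have the core TCCCGC. The 250 bases before each start site were therefore read from RefSeq (GRCm38.p6, where all 10 members matched), and both motifs were searched on both strands. CACGTG, which reads the same on both strands, was found in 4 of the 10 (Sycp1, Sycp3, Stag3 and Hormad1), against 6.05% of 27025 promoters. TCCCGC was found in 4 (Sycp3, Smc1b, Rec8 and Hormad1), against 16.9% of promoters, and no match of one motif overlapped a match of the other. Sycp3 and Hormad1 held both, as did 1.47% of promoters. Sycp2, Syce1, Hormad2 and Stra8 held neither. A match is a description of these letters and not a binding site.

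A few of the promoters are shown since the members differ in them: Sycp1 and Syce1, which moved alike in the libraries, have and lack the E-box, Sycp3 and Hormad1 have both motifs, Stag3 has the most CpG, and Stra8 the fewest. Capitals mark CACGTG and TCCCGC, the latter as its reverse complement where it lies on the other strand, and every sequence runs 5′ to 3′ on the strand of the gene up to the base before its start. In order, they lie on GRCm38.p6 at chr3:102936101-102936350 (minus strand), chr7:140787855-140788104 (minus), chr10:88459337-88459586 (plus), chr5:138280259-138280508 (plus), chr3:95559427-95559676 (plus) and chr6:34920698-34920947 (plus).
Sycp1: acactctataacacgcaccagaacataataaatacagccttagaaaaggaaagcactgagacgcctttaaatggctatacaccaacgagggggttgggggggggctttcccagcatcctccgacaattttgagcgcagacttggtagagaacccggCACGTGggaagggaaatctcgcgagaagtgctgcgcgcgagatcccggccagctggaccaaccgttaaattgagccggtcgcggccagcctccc
Syce1: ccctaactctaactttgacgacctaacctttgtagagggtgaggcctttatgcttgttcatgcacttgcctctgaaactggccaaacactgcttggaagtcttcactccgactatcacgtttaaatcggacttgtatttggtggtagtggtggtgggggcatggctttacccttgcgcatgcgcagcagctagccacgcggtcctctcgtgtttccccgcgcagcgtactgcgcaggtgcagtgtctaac
Sycp3: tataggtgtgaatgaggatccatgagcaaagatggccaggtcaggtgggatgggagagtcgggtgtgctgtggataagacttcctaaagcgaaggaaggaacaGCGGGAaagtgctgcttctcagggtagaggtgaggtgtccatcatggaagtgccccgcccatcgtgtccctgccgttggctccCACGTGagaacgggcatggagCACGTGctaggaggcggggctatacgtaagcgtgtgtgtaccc
Stag3: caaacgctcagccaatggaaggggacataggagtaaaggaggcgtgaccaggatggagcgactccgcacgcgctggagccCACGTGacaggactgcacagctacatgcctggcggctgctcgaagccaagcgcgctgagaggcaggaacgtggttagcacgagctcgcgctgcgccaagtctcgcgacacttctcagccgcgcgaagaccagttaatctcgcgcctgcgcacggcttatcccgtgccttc
Hormad1: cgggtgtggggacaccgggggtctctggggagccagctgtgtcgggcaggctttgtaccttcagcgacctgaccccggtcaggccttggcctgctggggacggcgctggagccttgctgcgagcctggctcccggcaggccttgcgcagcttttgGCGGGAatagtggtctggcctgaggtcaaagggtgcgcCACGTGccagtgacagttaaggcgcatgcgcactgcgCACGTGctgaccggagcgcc
Stra8: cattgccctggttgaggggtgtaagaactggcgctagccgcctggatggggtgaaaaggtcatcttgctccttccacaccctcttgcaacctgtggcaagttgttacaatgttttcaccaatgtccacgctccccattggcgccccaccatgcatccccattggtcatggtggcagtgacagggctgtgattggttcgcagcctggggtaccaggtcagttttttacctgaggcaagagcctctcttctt

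The number of CpG in these windows ran from 26 in Stag3, 25 in Smc1b, 19 in Hormad1 and 17 in Sycp1, through 13 in Syce1, 12 in Sycp3, 10 in Rec8 and 10 in Hormad2, to 7 in Sycp2 and 5 in Stra8. Over all promoters the median was 6 and the quartiles were 2 and 16, so that 4 members lay above the upper quartile and Stra8 alone lay below the median. Both motifs contain a CpG, and their shares were not compared with promoters of like CpG number.

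The members were far from equally abundant. Ordered by the median level over the 59 libraries, Stag3 stood at 36.4 TPM (range 8.73 to 93.6), Sycp3 at 32.1 (4.76 to 127), Rec8 at 21.3 (6.93 to 63.6) and Hormad1 at 16.3 (2.09 to 77.5). Hormad2 followed at 14.5 TPM (0.422 to 42.0), Stra8 at 9.02 (0.398 to 383), Syce1 at 8.34 (1.90 to 157), Sycp1 at 6.14 (1.49 to 127), Smc1b at 5.93 (1.12 to 36.3) and Sycp2 at 0.831 (0 to 11.1). The ranges of all neighbours in this order overlap. The cohesin genes and Sycp3 were thus present in every library, Stra8 had the widest span among members above 0 throughout, and Sycp2 alone was at 0 in any library, namely 2 of 59.

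Between ESCs and EBs of the Pcgf1 line the 10 members did not move as a block. In control cells 4 of 10 passed the test (limma on log2(TPM + 0.1), adjusted over all genes tested, adjusted p under 0.05): Sycp2 rose in EBs, and Stag3, Hormad2 and Stra8 fell. Of all 20594 genes tested, 24.9% passed. In mutant cells 3 of 10 passed, Sycp2 upwards and Rec8 and Hormad2 downwards, against 18.3% of genes. Averaged over genotypes 4 passed, Sycp2 upwards and Stag3, Rec8 and Hormad2 downwards, against 34.3% of genes. These are bulk samples, in which fewer cells of a type and less RNA per cell cannot be told apart.

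Among the synaptonemal complex genes, Sycp2 was close to absent in ESCs. Its TPM in replicate order was 0.354, 0.0746, 0.200 and 0.228 in control ESCs, and 1.27, 1.22, 0.897, 1.00 and 0.990 in control EBs. The groups did not overlap, and the log2 difference was 1.97 ± 0.41 (standard error, limma adjusted p = 0.0016). In mutant cells Sycp2 went from 0 to 0.372 TPM in ESCs to 0.391 to 1.09 TPM in EBs, a log2 difference of 1.40 ± 0.39 (limma adjusted p = 0.016). Sycp1 and Syce1 stayed low at both stages, at 1.49 to 5.82 TPM and 1.90 to 5.81 TPM over the 19 libraries, with log2 differences between EBs and ESCs of -0.05 to 0.13 and of -0.30 to 0.20, neither past the threshold.

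The cohesin gene Stag3 was the most abundant member in control ESCs, at 48.3, 91.4, 93.6 and 53.2 TPM, and stood in control EBs at 8.73, 14.8, 14.9, 43.0 and 38.9 TPM. Every EB library lay below every ESC library, with a log2 difference of -1.77 ± 0.44 (limma adjusted p = 0.0056). Smc1b, another cohesin subunit specific to meiosis, stood at 11.2, 16.4, 14.2 and 12.2 TPM in control ESCs and at 2.07, 3.01, 1.68, 17.2 and 14.5 TPM in control EBs. Its groups overlapped, and the difference of -1.44 ± 0.58 missed the threshold (limma adjusted p = 0.082), while a fit that blocks on replicate gave -1.66 and passed (limma adjusted p = 0.0069). Rec8, the meiotic kleisin, passed the test in mutant and not in control cells, from 15 to 19.8 TPM in ESCs to 6.92 to 11.6 TPM in EBs (log2 difference -0.94 ± 0.19, limma adjusted p = 0.0016). No member passed the test of the difference between these changes and those of control cells without the block, where 0.00486% of genes passed. For that difference 2 of 10 members and 1195 of 20594 genes had an unadjusted p under 0.05.

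Of the HORMA-domain genes, Hormad2 had the largest difference of the 10 members. Its TPM was 14.5, 13.6, 10.6 and 16.7 in control ESCs and 1.5, 2.16, 0.422, 4.78 and 6.12 in control EBs, without overlap (log2 difference -2.61 ± 0.58, limma adjusted p = 0.0028). Mutant cells had 7.58 to 16 TPM in ESCs and 1.06 to 5.21 TPM in EBs (-2.26 ± 0.55, limma adjusted p = 0.0069). Hormad1, at 8.41 to 23.6 TPM in the ESCs without 4-OHT, spanned 4.23 to 31.3 TPM in the matching EBs and did not pass the test.

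Stra8 was at 4.92, 4.96, 6.63 and 8.36 TPM in control ESCs and at 1.58, 0.398, 1.56, 4.25 and 5.23 TPM in control EBs, a log2 difference of -1.62 ± 0.58 that lay close to the threshold (limma adjusted p = 0.049). Only the EB library at 5.23 TPM reached into the range of the ESCs. In mutant cells it was 1.67 to 4.90 TPM in ESCs and 2.82 to 9.24 TPM in EBs, and did not pass.

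**Figure D1:**
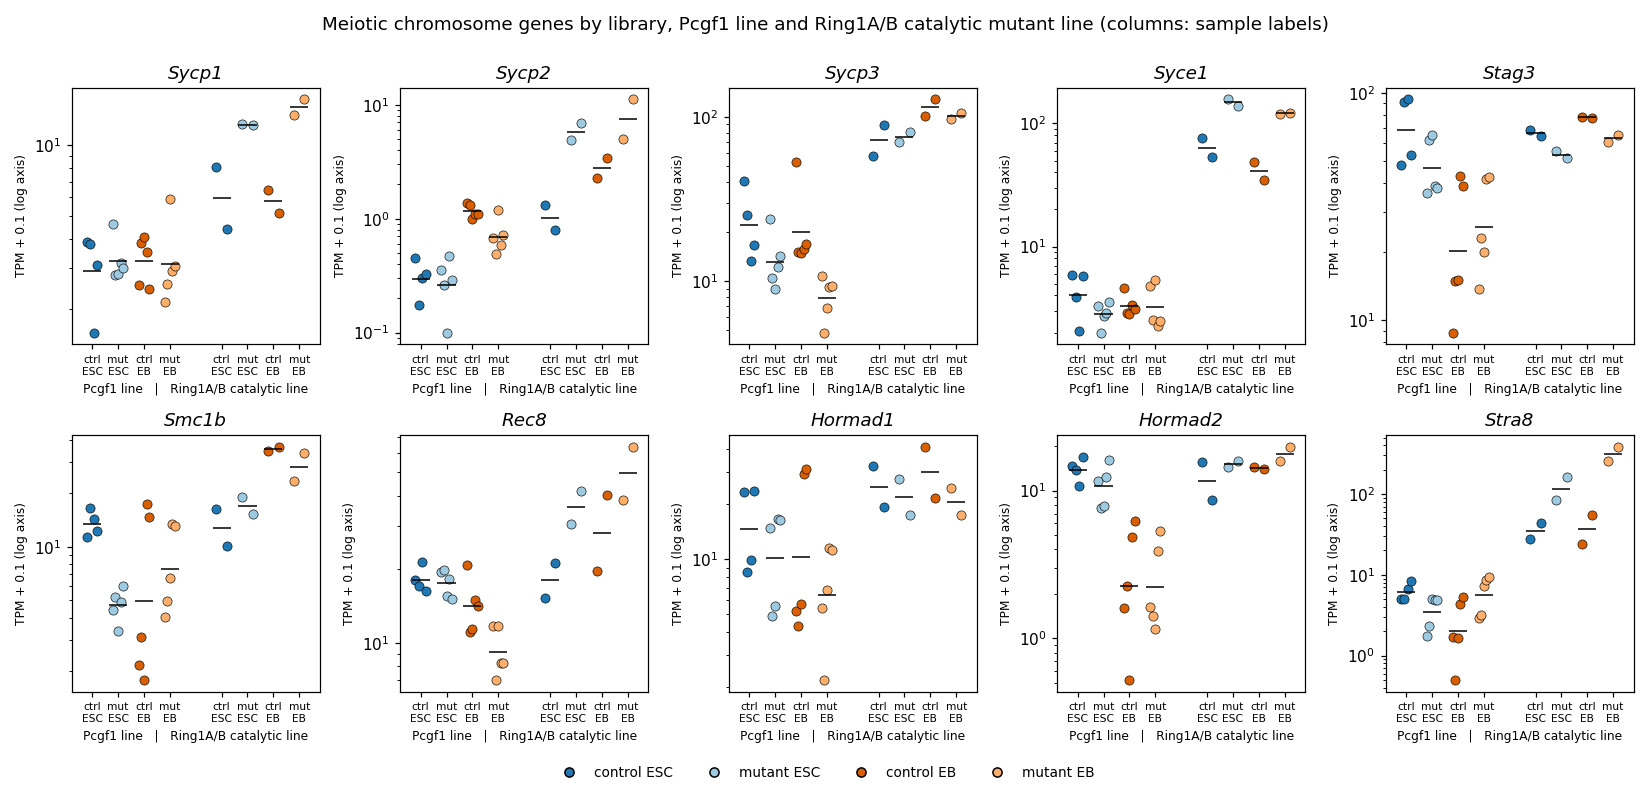
TPM of the 10 members on a log axis in the Pcgf1 line and the Ring1 catalytic line, 1 point per library, in the labelled groups control ESC, mutant ESC, control EB and mutant EB; black bars are means on the log scale. In the Pcgf1 line Stag3 and Hormad2 lie lower in control EBs than in control ESCs, and in the Ring1 catalytic line Sycp1, Sycp2, Syce1 and Stra8 lie higher in mutant than in control cells at both stages.

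The control EBs of the Pcgf1 line differed by library series in several members. The Pcgf1 libraries fall into 3 series by the identifiers in the table headers: replicate 1 (4 libraries), replicates 2 and 3 (8 libraries), and replicates 4 and 5 (7 libraries). Within the series the log2 difference of Smc1b between control EBs and control ESCs was -2.39, -2.70 and 0.38, that of Stag3 -2.45, -2.63 and -0.38, and that of Hormad1 -2.17, -0.88 and 0.35. Hormad2 was lower in EBs within each (-3.19, -3.48 and -1.61), as did Stra8 (-1.57, -2.68 and -0.81), while Sycp2 was higher in EBs in each (1.59, 2.33 and 1.74). The lower level of Smc1b and Hormad1 in EBs thus did not hold within the third series, whose control ESC arm is 1 library. Control EBs of that series also had higher naive markers (Klf4 11.7 to 12.4 TPM against 3.54 to 5.90 TPM in the others) and lower Dnmt3b (774 to 795 TPM against 1230 to 2340 TPM), and the part of this in the result was not tested.

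**Figure D2:**
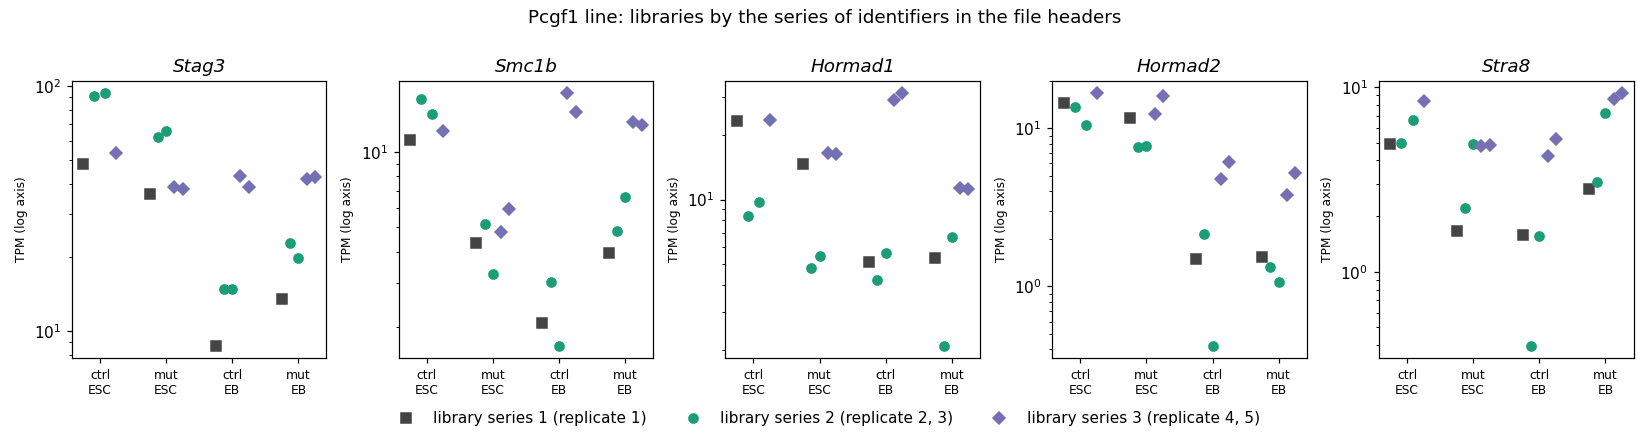
TPM of Stag3, Smc1b, Hormad1, Hormad2 and Stra8 on a log axis in the 19 Pcgf1 libraries, split into the 3 library series, 1 point per library. Control EBs of the third series stand at 14.5 to 17.2 TPM for Smc1b and 29.1 to 31.3 TPM for Hormad1, against 1.68 to 3.01 TPM and 4.23 to 5.62 TPM in the other series.

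Feeder fibroblast markers moved with the stage in this line. The sum of 8 such genes was 148 to 280 TPM in ESC libraries, 24.6 to 47.7 TPM in EBs with Pcgf1 and 7.83 to 14.1 TPM in EBs lacking it. The gap between these EB groups lay mostly in Thy1, at 16.4 to 26.7 TPM with Pcgf1 and 2.49 to 3.59 TPM without it. Dcn stood at 1.37 to 8.16 and 0 to 1.83 TPM. Col1a1 overlapped between them (3.74 to 9.25 and 3.49 to 6.48 TPM), as did Col1a2 and Col3a1. Of the 8 genes, 5 passed the test downwards and 2 upwards in EBs averaged over genotypes, and their part in the fall of the members was not tested.

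Loss of Pcgf1 itself moved few of the 10 members. The targeted gene stood at 7.3 to 16.6 TPM in controls and at 0.627 to 2.77 TPM in mutants, without overlap. No member passed the test in ESCs, where 0.641% of all genes passed, or in EBs, where 1.95% did. An unadjusted p under 0.05 was found for 1 member and 1777 of 20594 genes in ESCs, and for 3 members and 2470 genes in EBs. Averaged over both stages, Sycp3 alone passed, downwards, against 3.00% of genes, and it lay at the threshold: 0 members passed with a pseudocount of 1 or with median-of-ratios scaling, and Sycp3 lost its call in 16 of the 19 fits that leave out 1 library, being kept only without control ESC replicate 3, mutant EB replicate 1 or mutant ESC replicate 1. Same-numbered libraries of this line deviated together. With the replicate number as a block 1 member passed in ESCs (5.31% of genes), 3 in EBs (10.4%) and 2 averaged over stages (13.3%).

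Sycp3, the lateral element gene, was at 40.5, 25, 13.2 and 16.6 TPM in control ESCs and at 23.8, 10.3, 8.79, 12 and 14.1 TPM in mutant ESCs. In control EBs it stood at 52.7, 15, 14.7, 15.5 and 16.7 TPM, and in mutant EBs at 10.7, 4.76, 6.79, 9.09 and 9.19 TPM. The mutant value was the lower one in every pair of replicates, and the EB groups did not overlap. The averaged log2 difference was -1.03 ± 0.28 (limma adjusted p = 0.049, and 0.00045 with the replicate block). In EBs it was -1.33 ± 0.38, past the threshold with the block (limma adjusted p = 0.00095) and not without it (0.083).

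Smc1b stood at 11.2 to 16.4 TPM in ESCs with Pcgf1 and at 4.33, 5.15, 3.26, 4.79 and 5.93 TPM in those without it. The groups did not overlap, and the log2 difference of -1.52 ± 0.58 passed only with the block (limma adjusted p = 0.38, and 0.036 with it). Rec8 in EBs stood at 20.8, 11, 11.3, 14.9 and 14.1 TPM in controls and at 11.6, 6.92, 11.6, 8.12 and 8.15 TPM in mutants, a log2 difference of -0.62 ± 0.19 (limma adjusted p = 0.11, and 0.022 with the block).

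Stra8 went the other way in EBs, with 1.58, 0.398, 1.56, 4.25 and 5.23 TPM in controls and 2.82, 3.06, 7.2, 8.63 and 9.24 TPM in mutants. The mutant was the higher one in each of the 5 pairs, with a log2 difference of 1.48 ± 0.55 (limma adjusted p = 0.23, and 0.0084 with the block). In ESCs its difference was -0.83, and the difference between the stages, 2.54 with the block, passed the test (limma adjusted p = 0.018), as against 2.32 and an adjusted p of 0.63 without it. Hormad1 passed only averaged over stages with the block (-0.74, limma adjusted p = 0.048).

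The Ring1 catalytic line had a split of a different kind. Averaged over ESCs and EBs, 4 of the 10 members rose in cells with both Ring1 proteins mutated, namely Sycp1, Sycp2, Syce1 and Stra8, and none fell. Of all genes tested 10.4% rose, 12.1% passed in either direction, and the median difference over all genes was 0.13 on the log2 scale. The 4 mutant libraries all lay above the 4 control libraries for these 4 members, as for 12.6% of genes. The other 6 members had averaged log2 differences of -0.36 (Hormad1) to 0.90 (Rec8), and did not pass.

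Syce1, the central element gene, was at 75.5 and 53.6 TPM in control ESCs, 157 and 140 TPM in mutant ESCs, 48.5 and 34.5 TPM in control EBs, and 119 and 123 TPM in mutant EBs. At each stage alone 2 members passed, Sycp2 and Syce1 in ESCs (2.54% of genes) and Syce1 and Stra8 in EBs (4.53%). Both counts rest on every library, since leaving out any 1 of the 8 gave 0 in ESCs and 0 to 1 in EBs, and fitting only the ESC groups gave 0. Mutant and control libraries of Syce1 did not overlap at either stage, and the log2 differences were 1.22 ± 0.21 in ESCs (limma adjusted p = 0.034), 1.56 ± 0.21 in EBs (0.014) and 1.39 ± 0.15 averaged (0.0031). Sycp1, the transverse filament gene, was at 8 and 4.28 TPM in control ESCs and 12.2 and 12.1 TPM in mutant ESCs, and at 6.36 and 5.03 TPM in control EBs and 13.4 and 15.6 TPM in mutant EBs. It rose on average by 1.19 ± 0.22 on the log2 scale (limma adjusted p = 0.016) and passed at neither stage alone. Sycp2 stood at 1.22 and 0.688 TPM, then 4.78 and 6.76 TPM, in control and mutant ESCs, and at 2.16 and 3.30 TPM, then 4.88 and 11.1 TPM, in control and mutant EBs. Its averaged log2 difference was 1.96 ± 0.35 (limma adjusted p = 0.014), and it passed in ESCs (2.5 ± 0.49, 0.048). Sycp3, abundant at 57.9 to 127 TPM in all 8 libraries, had an averaged difference of -0.05 ± 0.15. The 4 genes of the complex therefore split, with the lateral element gene Sycp2 beside Sycp1 and Syce1.

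Stra8 had the largest difference of the 10 members in this line. It stood at 27.3 and 43.4 TPM in control ESCs, 84.5 and 160 TPM in mutant ESCs, 24.1 and 55.5 TPM in control EBs, and 259 and 383 TPM in mutant EBs. The averaged log2 difference was 2.43 ± 0.33 (limma adjusted p = 0.0060), and in EBs it was 3.10 ± 0.46 (0.017). In ESCs it was 1.75 ± 0.46 and missed the threshold (0.10). No member passed the test of the difference between the stages, where 0.00986% of genes passed, and 0 of 10 members and 1076 of 20279 genes had an unadjusted p under 0.05.

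The cohesin genes did not pass in this comparison. Rec8 stood at 15.2 and 21.2 TPM, then 30.7 and 41.8 TPM, in control and mutant ESCs, and at 19.6 and 40.4 TPM, then 38.5 and 63.6 TPM, in EBs. Its replicate 2 was the higher library in each group, and the averaged difference of 0.90 ± 0.28 gave a limma adjusted p of 0.077. Stag3 had 64.5 to 78.5 TPM in controls and 51.5 to 65.5 TPM in mutants (-0.31 ± 0.08, adjusted p = 0.053). Over both stages together Smc1b was 9.96 to 36.3 TPM in controls and 15.1 to 33.4 TPM in mutants, and Hormad1 and Hormad2 overlapped as well. Within a stage, with 2 libraries a group, Stag3 was lower in mutants without overlap in both ESCs and EBs. In EBs alone Smc1b did not overlap (34.3 to 36.3 TPM in controls, 23.4 to 33.4 TPM in mutants). Hormad2 did not overlap there either (14 to 14.5 TPM in controls, 15.8 to 19.7 TPM in mutants).

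Leaving out 1 library changed these counts. Syce1 passed in all 8 such fits of the averaged comparison, while the number of members that passed ran from 1 to 4, with 1 left after leaving out mutant EB replicate 2 or mutant ESC replicate 2 and 2 after leaving out control EB replicate 1, control EB replicate 2 or mutant ESC replicate 1. The fibroblast markers also moved with the genotype here, with sums of 29.4 to 41.2 TPM in control libraries and 65.9 to 70.8 TPM in mutant ones and 4 of 8 genes higher, and their part in the result was not tested. Thy1 made up much of these sums, at 21.6 to 30.9 TPM in control and 38.5 to 46.1 TPM in mutant libraries.

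Between ESCs and EBs of this line, Smc1b was the one member that passed. It went from 16.2 and 9.96 TPM in control ESCs to 34.3 and 36.3 TPM in control EBs (log2 difference 1.47 ± 0.28, limma adjusted p = 0.032), against 4.73% of genes, and rose by 1.09 ± 0.20 averaged over genotypes (0.022), against 6.64% of genes. Neither call was firm: in control cells it was lost on leaving out any 1 of the 8 libraries and when only the groups compared were fitted, and the averaged one was lost in every such fit except that without control ESC replicate 1. In mutant cells no member passed, against 0.133% of genes, and 2 of 10 members and 1974 of 20279 genes had an unadjusted p under 0.05. Hormad2, which fell in the Pcgf1 line, spanned 8.51 to 15.5 TPM in control ESCs here, and its control EBs lay at 14 to 14.5 TPM.

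**Figure D3:**
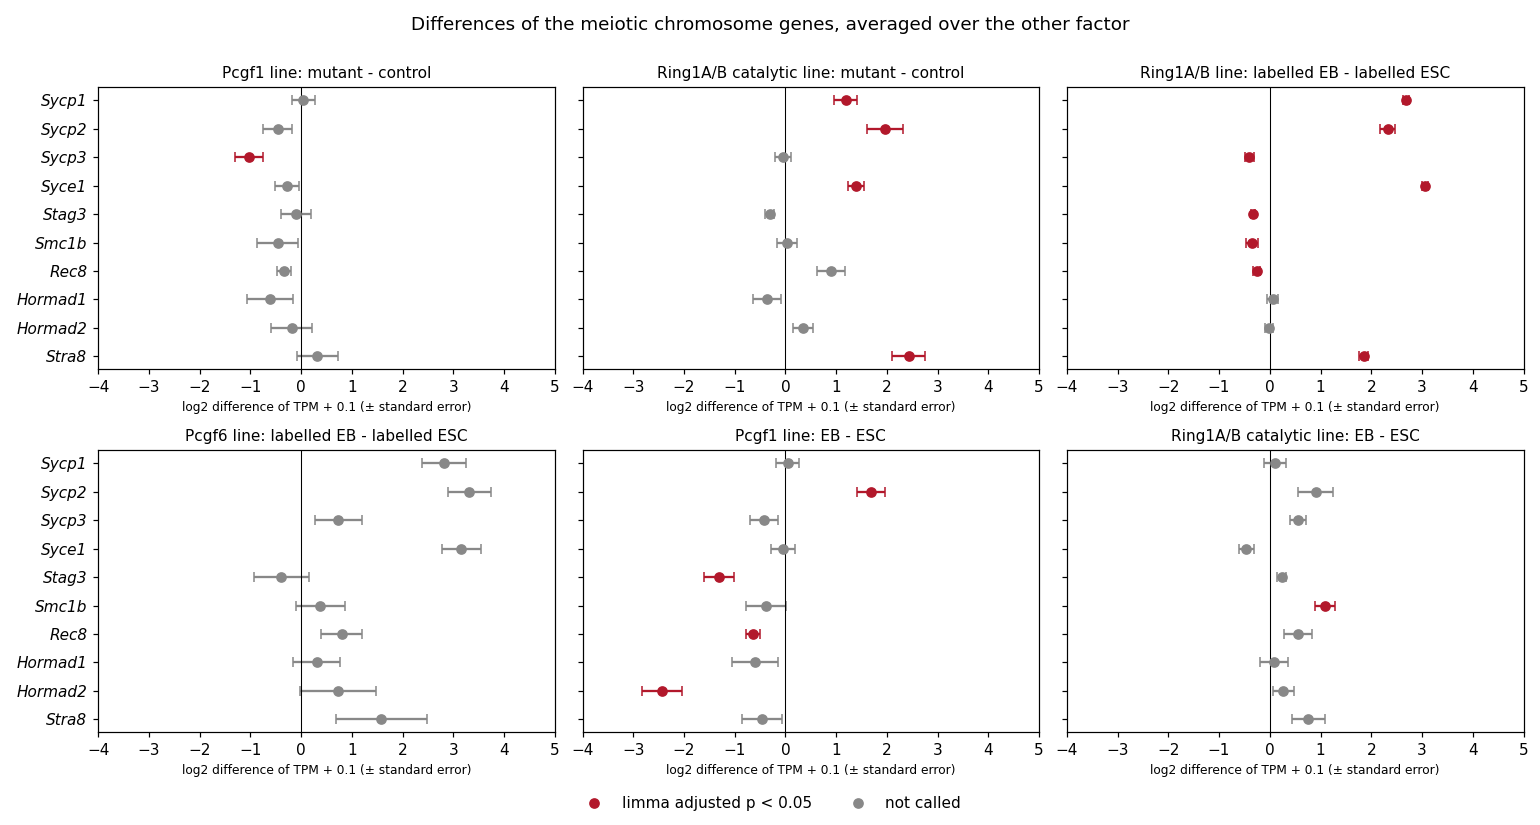
Log2 difference of each member with its standard error (limma, log2(TPM + 0.1)) in 6 averaged comparisons: mutant against control in the Pcgf1 and Ring1 catalytic lines, libraries labelled EB against libraries labelled ESC in the Ring1a/b and Pcgf6 lines, and EB against ESC in the Pcgf1 and Ring1 catalytic lines; red points passed the test. Sycp1, Sycp2, Syce1 and Stra8 are the 4 red points in the Ring1 catalytic panel for genotype, and Sycp3 is the 1 in that of the Pcgf1 line.

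In the Ring1a/b line the comparison that rests only on libraries with the same label and name is mutant EB against control ESC, in which loss of Ring1b and the change of stage cannot be told apart. There 4 of the 10 members rose (Sycp1, Sycp2, Syce1 and Stra8), 3 fell (Sycp3, Stag3 and Hormad2) and 3 did not pass, against 54.9% of all genes that passed. In the Pcgf1 line the same comparison gave 5 of 10, with Sycp2 up (8.62% of genes) and Sycp3, Stag3, Rec8 and Hormad2 down (12.4%). In the Ring1 catalytic line it gave 5 of 10, all up (Sycp1, Sycp2, Syce1, Smc1b and Stra8), against 9.46% of genes, but leaving out any 1 library gave 0 to 1, fitting only the groups compared gave 1, and a pseudocount of 1 gave 3.

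Sycp1 stood at 10.1 and 10.8 TPM in control ESCs and at 74.0 and 72.3 TPM in mutant EBs of the Ring1a/b line (log2 difference 2.79 ± 0.08, limma adjusted p = 3.2e-07). Syce1 went from 7.49 and 8.41 TPM to 80.1 and 89.4 TPM (3.40 ± 0.09, 2.3e-07), and Sycp2 from 0.359 and 0.409 TPM to 5.17 and 5.40 TPM (3.48 ± 0.20, 7.2e-06). Stra8 was at 19.8 and 20.8 TPM in control ESCs and 70.6 and 61.0 TPM in mutant EBs (1.69 ± 0.12, 1.8e-05). All 4 were thus higher in both mutant EB libraries than in both control ESC libraries.

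The 3 that fell did so by less. Stag3 went from 40.9 and 40.4 TPM to 20.2 and 20.5 TPM (-0.99 ± 0.06, limma adjusted p = 8.9e-06), Hormad2 from 19.4 and 18.1 TPM to 11.4 and 12.7 TPM (-0.64 ± 0.12, 0.0028), and Sycp3 from 32.9 and 29.9 TPM to 22 and 19.3 TPM (-0.60 ± 0.13, 0.0046). Rec8, Smc1b and Hormad1 differed by -0.27 to 0.08.

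In this line Sycp1 and Syce1 were high in both groups labelled EB, which are named mutant ESC and mutant EB. The libraries labelled control EB (named mutant ESC, and with Klf4 at ESC levels) held 68.9 and 61.7 TPM of Sycp1 and 65.7 and 60.5 TPM of Syce1, and those labelled mutant ESC (named control EB) 11.4 and 10.2 TPM and 10 and 9.11 TPM. Sycp1 was thus higher in the libraries labelled control EB than in those labelled control ESC (2.63 ± 0.08, limma adjusted p = 8.9e-07). By the names, this sets mutant ESCs against control ESCs. It was among the 5 of 10 members that passed there (Sycp1, Sycp2, Sycp3, Syce1 and Stra8, all upwards), against 43.2% of genes. The libraries named control EB held 10.2 to 11.4 TPM of Sycp1, beside 10.1 to 10.8 TPM in control ESCs. Between the libraries labelled mutant EB and those labelled mutant ESC (named control EB), 8 of 10 passed, against 56.5% of genes. Sycp1, Sycp2, Syce1 and Stra8 were higher in those labelled EB, and Sycp3, Stag3, Smc1b and Rec8 lower. Averaged over genotypes, 4 members had all libraries labelled EB above all labelled ESC (Sycp1, Sycp2, Syce1 and Stra8), as did 22.6% of genes. In all, 8 members passed in that averaged comparison against 58.5% of genes, and for labelled mutant against labelled control 8 passed in ESCs (48.8%), 5 in EBs (33.3%), 6 on average (49.6%) and 8 for the difference of stages (34.8%). By the names, labelled EB against labelled ESC is mutant against control in this line, and labelled mutant against labelled control is EB against ESC.

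Levels in the 4 conditions of this line also differed for Stra8, which stood at 19.8 and 20.8 TPM in libraries labelled control ESC, 9.73 and 8.06 TPM in those labelled mutant ESC, 38.7 and 33.3 TPM in those labelled control EB, and 70.6 and 61.0 TPM in those labelled mutant EB. Sycp3 had its highest values in the libraries labelled mutant ESC and control EB, at 49.1, 56.9, 51.7 and 41.1 TPM. The fibroblast sum was 381 to 406 TPM in the libraries labelled control EB and 152 to 153 TPM in those labelled control ESC. It was 25.5 to 71.5 TPM in the remaining 4, of which those labelled mutant EB had 70.9 to 71.5 TPM. Its part in the differences of the members was not tested. Ring1 stood at 0.97 to 3.41 TPM throughout this line, where it is deleted in every group, and Rnf2 (which encodes RING1B) at 62.9 to 95.1 TPM, a range in which labelled controls and mutants overlapped. By the names, Rnf2 was at 78.1 to 95.1 TPM in mutants (labelled EB) and at 62.9 to 78.2 TPM in controls (labelled ESC). Its RNA was thus not lower in the named mutants either.

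In the Pcgf6 line the libraries labelled control and those labelled mutant hardly differed, while those labelled EB stood apart from those labelled ESC. By the names, each labelled ESC group holds a control ESC and a control EB library, and each labelled EB group a mutant ESC and a mutant EB library. Pcgf6 was at 67.1 to 105 TPM in the 4 libraries labelled ESC and at 34.7 to 46.3 TPM in the 4 labelled EB. The 10 members differed by -0.18 to 0.08 (log2) between labelled mutant and labelled control libraries, and no gene passed (limma; 175 of 19695 genes and 0 members had an unadjusted p under 0.05). By the names, labelled mutant and labelled control libraries of one replicate number hold the same condition, and Pcgf6 itself spanned 34.7 to 91.5 TPM in labelled controls and 37.0 to 105 TPM in labelled mutants, so this comparison says nothing about loss of Pcgf6.

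Sycp1 stood at 13.7, 9.54, 15.3 and 8.21 TPM in the libraries labelled ESC (control replicates 1 and 2, then mutant), and at 123, 59.9, 127 and 45.0 TPM in those labelled EB. Syce1 stood at 20.2, 7.32, 18.9 and 8.35 TPM against 107, 124, 111 and 105 TPM, and Sycp2 at 0.399, 0.666, 0.501 and 0.585 TPM against 7.87, 5.04, 5.76 and 6.40 TPM. For these 3 the 4 labelled EB libraries all lay above the 4 labelled ESC libraries, as did 13.5% of genes. The averaged log2 differences were 2.82 ± 0.43, 3.16 ± 0.39 and 3.32 ± 0.43, with limma adjusted p values of 0.091, 0.071 and 0.071, so that none passed. With the replicate number as a term of the fit, which here goes with the stage in the names, Sycp1, Syce1, Sycp2 and Stra8 passed (limma adjusted p = 0.013, 0.016, 0.019 and 0.033), while 2 passed with a mean of at least 1 TPM and 1 with median-of-ratios scaling. In this line 8 of 19695 genes passed in that comparison without this term, or 0.0406%, and the median difference of all genes was 0.36. An unadjusted p under 0.05 was found for 3 of the 10 members and 2516 genes.

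The rest of the members followed the replicate more than the label in the Pcgf6 line. Stra8 stood at 19.1, 4.53, 19.3 and 4.90 TPM in libraries labelled ESC and at 72.5, 13.3, 71.5 and 9.85 TPM in those labelled EB, replicate 1 being the higher in every group (1.58 ± 0.89, limma adjusted p = 0.47). Hormad2 stood at 30.1, 4.29, 27.6 and 4.72 TPM and then at 25.1, 15.3, 22.9 and 14.9 TPM, and Stag3 at 37.8, 13.1, 34.8 and 14.7 TPM and then at 28.8, 10.5, 25.8 and 11 TPM. In each case the library named ESC is replicate 1. Rec8 had 34.5, 13.2, 32.6 and 15.1 TPM against 45.2, 30.9, 47.7 and 31.2 TPM (0.80 ± 0.41), and Sycp3, Hormad1 and Smc1b differed by 0.30 to 0.74, none past the threshold. The fibroblast sum was 9.86 to 48.8 TPM in libraries labelled ESC and 75.5 to 164 TPM in those labelled EB, and its part in these differences was not tested.

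**Figure D4:**
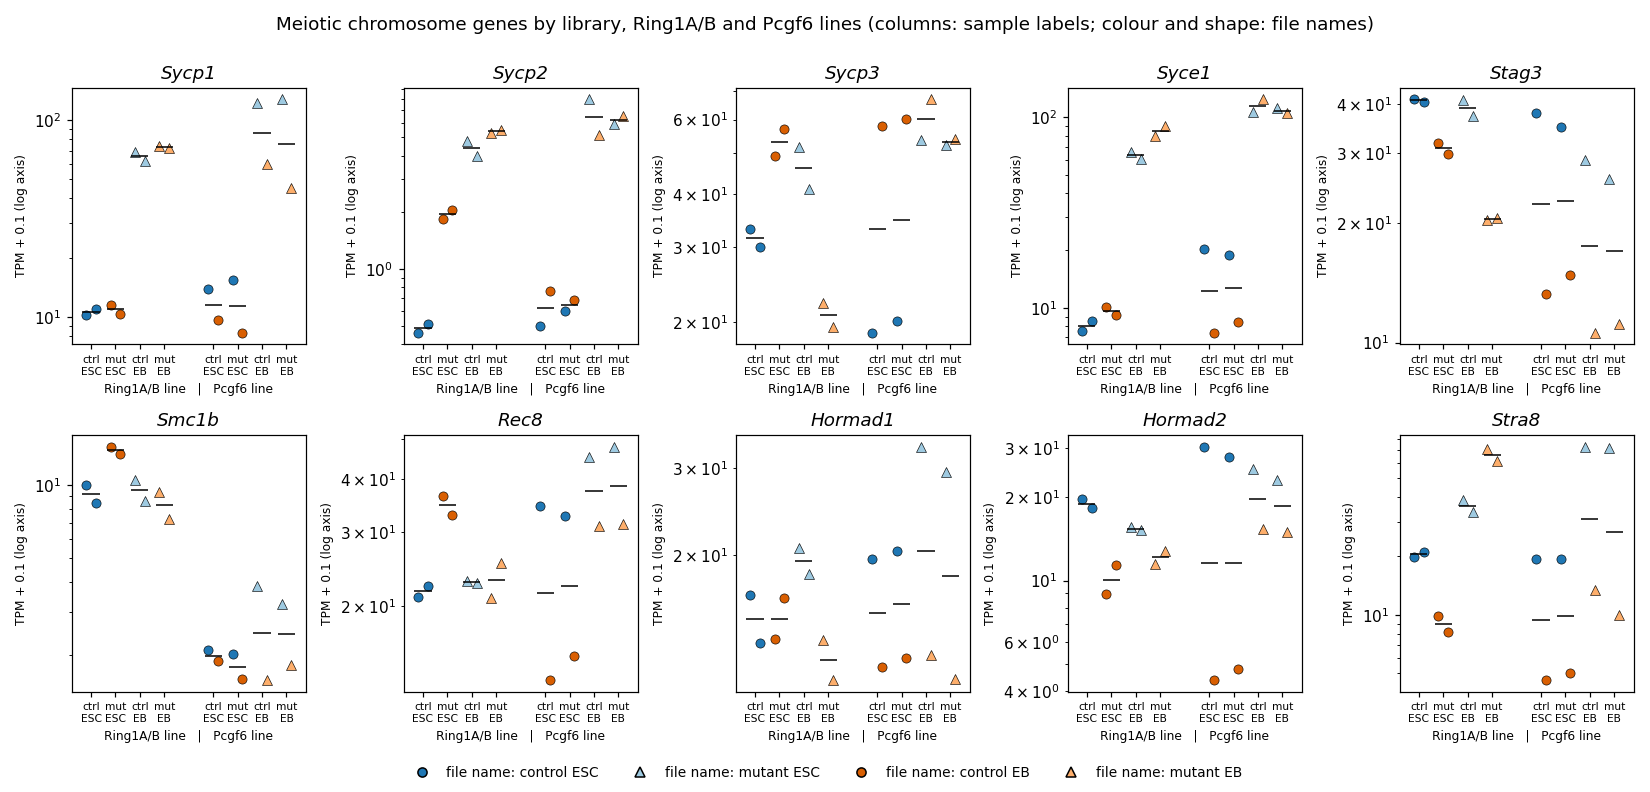
TPM of the 10 members on a log axis in the Ring1a/b and Pcgf6 lines, 1 point per library; columns are the labelled groups, colour and shape the condition in the library's name, and black bars means on the log scale. Sycp1, Sycp2 and Syce1 stand higher in the libraries labelled EB of both lines, which in the Ring1a/b line are at 61.7 to 74.0 TPM for Sycp1 against 10.1 to 11.4 TPM in those labelled ESC.

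In the Pcgf24 and Pcgf35 lines no member passed in any comparison within the line (limma), and in the Pcgf24 line 0.00% of genes passed. In each comparison 0 of 10 members had an unadjusted p under 0.05. So did 164 to 385 of 19250 genes in the Pcgf24 line and 228 to 2531 of 19963 genes in the Pcgf35 line. In the Pcgf35 line 0.0401% of genes passed for labelled mutant against control in ESCs, 0.0301% in EBs, 0.0601% for EB against ESC in control cells, 0.0150% for mutant EB against control ESC, 0.00501% for EB against ESC averaged, and 0.00% in the rest. Levels differed between replicates of one labelled group in a way the labels do not hold. In the Pcgf24 line Stra8 was at 13.8 to 15.8 TPM in the 4 replicates numbered 1 and at 1.40 to 2.30 TPM in those numbered 2. The result for Pcgf35 depended on the fit: with only the groups compared, 5 members passed for labelled control EB against ESC. The spread within labelled groups was therefore large in these lines, and the absence of calls does not show that the members were alike.

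The study's contrast of Ring1a/b and Pcgf6 with Pcgf1 was tested as the difference of each line's labelled effect from that of the Pcgf1 line, in 1 fit over all 59 libraries. All 5 differences share the Pcgf1 libraries, and the spread is pooled with the lines whose labels and names differ. For the labelled effect of genotype, none of the 10 members passed for the Ring1a/b line, against 4.66% of genes, or the Pcgf6 line, against 0.0675%. None passed for the Pcgf24 (0.0225%) and Pcgf35 lines (0.0360%). An unadjusted p under 0.05 was found for 1 member and 4175 of 22212 genes in the Ring1a/b line. In the Pcgf6 line it was found for 0 members and 1338 genes. The Ring1a/b differences ran from -0.56 to 1.62 (Sycp2, ± 0.66) and those of the Pcgf6 line from -0.40 to 0.98 (Sycp3, ± 0.50). For the Pcgf6 line, and the Pcgf24 line named in the same way, labelled genotype sets libraries of the same named condition against each other, so the absence of calls is no evidence on either mutation. In the Ring1a/b line labelled mutant against labelled control is, by the names, EB against ESC, and Klf4 followed the names. The absence of calls there is therefore no evidence on loss of Ring1b. For the Ring1 catalytic line 3 passed, all upwards, against 5.81% of genes: Sycp2 by 2.42 ± 0.66 (limma adjusted p = 0.020), Syce1 by 1.66 ± 0.37 (0.0030) and Rec8 by 1.24 ± 0.34 (0.022).

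For labelled EB against labelled ESC, Sycp1 and Syce1 differed from the Pcgf1 line in both the Ring1a/b line (2.65 ± 0.41 and 3.10 ± 0.37, limma adjusted p = 5.5e-06 and 4.1e-08) and the Pcgf6 line (2.78 ± 0.41 and 3.21 ± 0.37, 4.7e-06 and 3.9e-08). By the names, this labelled comparison sets mutant against control libraries in the Ring1a/b, Pcgf6 and Pcgf24 lines, and EBs against ESCs in the Pcgf1 line. Differences of those lines from the Pcgf1 line therefore set an effect of genotype against a change of stage. Hormad2, which fell in the Pcgf1 line, differed upwards from it in all 5 other lines, by 2.42 to 3.16 ± 0.70. Rec8 passed for the Pcgf6 and Ring1 catalytic lines, and Stag3 for the Pcgf35 and Ring1 catalytic lines. The counts were 3 of 10 for the Ring1a/b line against 26.7% of genes, 4 for the Pcgf6 line against 25.2%, 3 for the Ring1 catalytic line against 9.73%, 1 for the Pcgf24 line against 12.1% and 2 for the Pcgf35 line against 3.96%.

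Other meiotic genes gave a wider view. Of 30 further genes of recombination and synapsis, 25 were listed in the tables. In the Ring1 catalytic line 8 of the 25 rose with the mutation averaged over stages and none fell, against 10.4% of all genes that rose, with a median log2 difference of 0.49 against 0.13 over all genes. Mei1, needed for meiotic breaks, rose by 3.32, from 0.275 to 0.885 TPM in controls to 3.46 to 8.11 TPM in mutants, and the crossover gene Tex11 rose by 2.07, from 8.62 to 15.9 TPM to 41.9 to 56.8 TPM. Ccdc36 (2.43) and Spata22 (1.47), of break formation and repair, rose as well, as did the central element genes Syce3 (2.01), Tex12 (1.89) and Syce2 (0.61) and the cohesin gene Rad21l (2.00). With Syce1 and Sycp1, 4 central element genes and the transverse filament gene were thus among those that rose.

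With loss of Pcgf1, 0 of these 25 genes passed averaged over stages (limma, against 3.00% of all genes), with a median of -0.07 against -0.04 over all genes. In the Ring1a/b line 13 of the 25 rose and 3 fell between control ESCs and mutant EBs, with a median of 0.54 against 0.20, where 54.9% of all genes passed. Tex11 rose there by 3.47, from 3.25 to 3.33 TPM to 36.2 to 38.8 TPM, and Tex12 by 2.28. In the Pcgf6 line none passed between labelled EB and labelled ESC (median 0.61 against 0.36), although Tex11 stood at 34.2 to 49.4 TPM in libraries labelled EB and 2.20 to 9.36 TPM in those labelled ESC.

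The mitotic cohesin genes, 5 that every dividing cell uses, had sums of 390 to 550 TPM in the Ring1 catalytic line and 501 to 917 TPM in the Pcgf1 line. With the Ring1 mutation Stag2 alone passed, falling by 0.70 on the log2 scale. In the Pcgf1 line 2 of the 5 passed between EBs and ESCs averaged over genotypes (1 up and 1 down), and in the Ring1a/b line all 5 passed between labelled EB and labelled ESC (2 up and 3 down). Of 6 germ cell markers, Ddx4, the germ cell RNA helicase, rose with the mutation in the Ring1 catalytic line averaged over stages (2.09). It went from 13.2 to 34.4 TPM in controls to 71.2 to 113 TPM in mutants. In that comparison Prdm1 fell by 1.43, and the other 4 did not pass.

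Across the 59 libraries, with each gene centred on the mean of its line, the members did not share 1 pattern. The highest Pearson correlation between members was 0.85 for Sycp1 with Syce1, followed by 0.74 for Stag3 with Hormad2, 0.72 for Sycp1 with Sycp2, 0.64 for Stag3 with Smc1b and 0.63 for Smc1b with Hormad1. The 5 other genes closest to the mean of the members, of 16214 ranked, were Rbm44 (0.87), Tcam1 (0.84), Mov10l1 (0.82), 9330102E08Rik (0.82) and Mlf1 (0.79). Mov10l1, an RNA helicase of the piRNA pathway, stood at 12 to 18.4 TPM in control and 37.7 to 48.9 TPM in mutant libraries of the Ring1 catalytic line, and Tcam1 at 0.967 to 1.99 TPM and 5.65 to 8.96 TPM. Mlf1 stood at 4.85 to 15.9 TPM and 40.2 to 41.1 TPM. Rbm44 overlapped between control and mutant libraries (7.1 to 14.6 TPM and 12.7 to 20.8 TPM), as did 9330102E08Rik (3.44 to 6.04 TPM and 4.46 to 8.77 TPM). These correlations are a description, since the libraries of a line share a culture and its stages.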

How the data were processed

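RNA was measured by poly(A) RNA-seq in 59 libraries of 6 lines. Per the labels and the study's methods, the authors aligned reads to mm9 with STAR 2.5.2b, tested counts with DESeq2 and deposited 1 TPM table per library. TPM sums to 1000000 in each library and keeps no depth, so the depth is unknown and no counting interval is given. The deposited TPM values were joined by gene symbol. Groups are those of the sample labels. One mutant EB library of the Pcgf1 line is replicate 4 by its title, used here, and 5 by another label.

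Each line was fitted with limma 3.58.1 (R 4.3.3, trend) on log2(TPM + 0.1) over its 4 labelled groups, with genes above 0 in at least 1 library, two-sided and with Benjamini-Hochberg adjustment over all genes tested. Fold changes on this scale understate low genes. One further fit over 59 libraries compared the lines. In the Pcgf1 line same-numbered libraries deviated together (r of 0.32 to 0.65 in every pair), so the numbers were used as a block. The numbers lie within the library series, and whether the shared deviation follows the number or the series was not tested. The fits were tested on simulated data.

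The members and gene lists were chosen with earlier results of these data known. All 10 members were named in every comparison, list genes where they passed, and the 5 genes most like the members. Alternatives were a pseudocount of 1, a mean of at least 1 TPM, median-of-ratios scaling, a replicate block, only the groups compared, and leaving out each library.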

Additional observations from a re-analysis of the deposited data

Results flagged for a closer look

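Of 40 groups of 4 or 5 libraries (the Pcgf1 line), 2 had a library far from the rest by Dixon's test, where chance gives about 1 in 20. Sycp1 stood at 4.53 TPM in mutant ESC replicate 1, the others being at 2.69 to 3.04 TPM. Sycp3 stood at 52.7 TPM in control EB replicate 1, the others being at 14.7 to 16.7 TPM.

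In the Ring1a/b line the labelled effect of genotype differed between labelled EB and labelled ESC for 8 of the 10 members (limma, log2 difference of differences, against 34.8% of genes). These were Sycp2 (-1.71), Sycp3 (-1.91), Stag3 (-0.53), Smc1b (-0.80), Rec8 (-0.67), Hormad1 (-0.67), Hormad2 (0.56) and Stra8 (2.05). The libraries labelled control EB and mutant ESC, which enter it, are named mutant ESC and control EB.

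The test of a line's effect against that of the Pcgf1 line passed 16 times. For genotype these were Sycp2 (2.42), Syce1 (1.66) and Rec8 (1.24), all in the Ring1 catalytic line. For labelled EB against labelled ESC they were Sycp1 (2.78), Syce1 (3.21), Rec8 (1.44) and Hormad2 (3.16) in the Pcgf6 line, Sycp1 (2.65), Syce1 (3.10) and Hormad2 (2.42) in the Ring1a/b line, Stag3 (1.55), Rec8 (1.20) and Hormad2 (2.70) in the Ring1 catalytic line, Stag3 (1.76) and Hormad2 (2.67) in the Pcgf35 line, and Hormad2 (2.45) in the Pcgf24 line. The Hormad2 and Stag3 differences rest on the fall of both genes in the Pcgf1 line, which all 5 share. By the names, labelled EB against labelled ESC is mutant against control in the Ring1a/b, Pcgf6 and Pcgf24 lines.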

How the results depend on the processing

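No log2 difference of a member that passed changed sign under any alternative run. Counts of members that passed (of 10) moved as follows, and the cause was not tested. A pseudocount of 1 gave 0 for mutant against control averaged in the Pcgf1 line, 3 for mutant EB against control ESC and 1 for mutant against control ESC in the Ring1 catalytic line, and 5 for Ring1a/b against Pcgf1 (EB against ESC). A mean of at least 1 TPM gave 2 for Pcgf6 EB against ESC averaged and 2 for Pcgf24 against Pcgf1 (EB against ESC). Median-of-ratios scaling gave 0 for Pcgf1 averaged, 1 for Pcgf6 EB against ESC averaged, 1 for mutant against control ESC in the Ring1 catalytic line and 2 for Pcgf24 against Pcgf1. Fitting only the groups compared gave 1 for Pcgf1 mutant against control ESC, 5 for Pcgf35 labelled control EB against ESC and, in the Ring1 catalytic line, 0 for control EB against ESC, 1 for mutant EB against control ESC and 0 for mutant against control ESC.

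With the replicate block, mutant against control in the Pcgf1 line gave 1 in ESCs, 3 in EBs, 2 averaged and 1 for the difference of stages. In the other lines the labels tie the number to no shared source, though in the Pcgf6 and Pcgf24 lines replicate 1 is named ESC and replicate 2 EB throughout, and same-numbered libraries deviated together (r of 0.28 to 0.76 and of 0.62 to 0.76). The block gave 4 for Pcgf6 EB against ESC averaged and, in the Ring1 catalytic line, 5, 2 and 1 for EB against ESC averaged, in control and in mutant cells, and 4 in EBs and 4 in ESCs for mutant against control. For EB against ESC relative to Pcgf1 it gave 4 for Pcgf24, 5 for Pcgf35, 9 for Pcgf6, 5 for Ring1a/b and 5 for the Ring1 catalytic line, and 1 for Ring1a/b against Pcgf1 by genotype. Chosen after seeing the data, the library series as a block gave 5 for Pcgf1 mutant EB against ESC, 2 for the difference of stages, and 3, 1 and 2 for mutant against control in EBs, in ESCs and averaged. Pairing the Pcgf35 numbers crosswise, also chosen then, gave 6 in labelled control and 0 in labelled mutant libraries for EB against ESC.

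Leaving out 1 library, where a lone sample is assumed to vary like the other groups, gave 0 to 1 for Pcgf1 mutant against control averaged (Sycp3 lost its call in 16 of 19 such fits) and 3 to 5 for Pcgf1 mutant EB against control ESC (3 without control ESC replicate 2 or 3 or mutant EB replicate 1 or 3). In the Ring1 catalytic line it gave 1 to 4 for mutant against control averaged, 0 to 0 in ESCs, 0 to 1 in EBs, 0 to 0 for control EB against ESC, 0 to 1 averaged and 0 to 1 for mutant EB against control ESC. In the Ring1a/b line it gave 4 to 6 for the difference of stages and 3 to 6 for labelled mutant against control EB. It was not run for differences between lines. TPM keeps no depth, so precision at low levels such as those of Sycp2 is unknown.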

Other observations

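Genes of the PRC1.6 complex itself were measured in the same libraries. E2f6 stood at 26.7 to 29.1 TPM in control and at 34.1 to 56.6 TPM in mutant libraries of the Ring1 catalytic line. In the Pcgf6 line it stood at 7.49 to 18.9 TPM in libraries labelled ESC and at 33.2 to 49.9 TPM in those labelled EB. In the Ring1a/b line it was at 17 to 23.0 TPM in libraries labelled ESC and at 36.0 to 49.1 TPM in those labelled EB. In the Pcgf1 line the range was 16 to 37.0 TPM over all groups. Max lay within 82.7 to 107 TPM in the Ring1 catalytic line, where Mga and L3mbtl2 overlapped between control and mutant libraries. In the Ring1a/b line Max was at 66.6 to 69.4 TPM in libraries labelled control EB and at 81.2 to 94.4 TPM in the others. Mga there was at 60.8 to 69.5 TPM in libraries labelled ESC and at 41.3 to 44.3 TPM in those labelled EB. L3mbtl2 there was at 119 TPM in libraries labelled mutant EB and at 65.9 to 78.0 TPM in the others. These values were chosen after they were seen and were not tested.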
